A study of Mus musculus with 24 samples.

Results

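MacB2 cells were compared with MacA cells from lungs that carried a tumour for 2 weeks, using 6 of the 24 RNA sequencing libraries of the study. The rule took the 3 MacA-2wk and the 3 MacB2-2wk libraries by their labels, and every difference is MacB2-2wk minus MacA-2wk. The lungs came from male C57BL/6 mice of 10 to 16 weeks, with no further allele named in the labels. Lewis lung carcinoma cells carrying luciferase (LLC-Luc, a syngeneic mouse lung tumour line) had been injected in Matrigel into the left lobe, so both populations carried the same tumour exposure, and the left lobe with its tumour was taken. MacA cells were sorted as SiglecF+ and CD11c+, and MacB2 cells as CD11b+, Ly6G-, intermediate for CD64 and CD11c-, without dead cells and doublets, after perfusion and red cell lysis. Each library pooled tissue of 3 to 5 mice, so a value is a pool and not an animal. Naive lungs without injected cells (MacA-N and MacB2-N, all lobes) and the CD64 high, CD11c+ cells of tumour lung (MacB3-2wk) were used to see where the difference changed. All 3 MacA-2wk libraries were run on sequencing lane 1 and the MacB2-2wk libraries on lanes 2, 3 and 7, so lane and population cannot be told apart.

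SiglecF+ CD11c+ cells of mouse lung are known as alveolar macrophages, which live in the air spaces, depend on GM-CSF and the nuclear receptor PPARγ, take up and break down surfactant lipid, and renew themselves largely without blood monocytes. CD11b+ Ly6G- cells of the lung include blood monocytes, carrying Ly6C and CCR2 or CX3CR1, and interstitial macrophages, carrying complement C1q and MHC class II. In tumours, monocytes recruited through CCR2 are known to give rise to macrophages that make growth factors, proteases and arginase.

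Levels are FPKM as deposited, that is, fragments scaled to transcript length and to the mapped fragments of the library. Differences and their standard errors (SE) were computed from log2(FPKM + 1), so that changes of genes with low levels appear smaller than they are. Of 37979 genes in the table, 17156 reached a group mean of 1 FPKM somewhere among the 8 groups and entered the limma test, with Benjamini-Hochberg adjustment over all of them. Called genes are those with an adjusted p below 0.05 and a difference of 2-fold or more. Where an alternative setting, or leaving out a library, took the adjusted p of a called gene above 0.05, the highest value is given beside the SE and p. Relative sequencing depth, read from the steps between the smallest values, ran from 0.681 to 0.823 in MacA-2wk and from 0.521 to 0.725 in MacB2-2wk, with the deepest library of the study set to 1. MacA-2wk replicate 3 stood apart: its values correlated with the other MacA-2wk libraries at 0.843 and 0.853 across genes, against 0.914 between those libraries and 0.891 to 0.899 within MacB2-2wk. Protein-coding genes made up 10.4% of its FPKM sum, against 15.5% to 22.7% in the other 5 libraries. It also held more RNA of structural lung cells, given with the other cell types below, and results that rest on it are given without it. Among all libraries, MacA-2wk replicate 2 correlated best with MacA-N replicate 3 (0.921), and MacA-2wk replicate 3 with MacA-N replicate 2 (0.864).

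RNA of the sorting antigens is given first. CD11c was gated in opposite directions in MacA and MacB2, so the direction of Itgax was set by the sort. By the gates named above, SiglecF was used for MacA only, and CD11b, CD64 and Ly6G for MacB2 only. Siglecf, which encodes SiglecF (chr7:43351341-43359531, GRCm38, plus strand), was at 142, 171 and 125 FPKM in MacA-2wk and 1.76, 3.59 and 4.82 FPKM in MacB2-2wk. The groups did not overlap, with MacB2-2wk lower (log2 difference -5.12, SE 0.54, adjusted p = 7.61e-07). For Itgax, which encodes CD11c (chr7:128129547-128150657, plus strand), the levels were 168, 190.4 and 98.1 FPKM in MacA-2wk and 12.96, 9.35 and 11.2 FPKM in MacB2-2wk. All 3 MacB2-2wk libraries were lower (log2 difference -3.61, SE 0.24, adjusted p = 2.25e-09). Itgam, which encodes CD11b (chr7:128062640-128118491, plus strand), was at 24.5, 10.3 and 17.2 FPKM in MacA-2wk and 258, 276 and 289 FPKM in MacB2-2wk, with every MacB2-2wk library above every MacA-2wk library. Itgam differed by 3.98 log2 units (SE 0.35, adjusted p = 9.44e-08). Fcgr1, the gene of the high-affinity IgG receptor CD64 (chr3:96282909-96293969, minus strand), was at 34.6, 36.2 and 30.7 FPKM in MacA-2wk and 91.1, 87.8 and 118 FPKM in MacB2-2wk, again without overlap. Fcgr1 differed by 1.51 log2 units (SE 0.16, adjusted p = 1.17e-06). Ly6g, the neutrophil antigen used as a negative gate, was listed at 0 in all 6 libraries and was not tested. In these bulk samples, fewer cells of a type and less RNA per cell cannot be told apart.

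**Figure D1:**
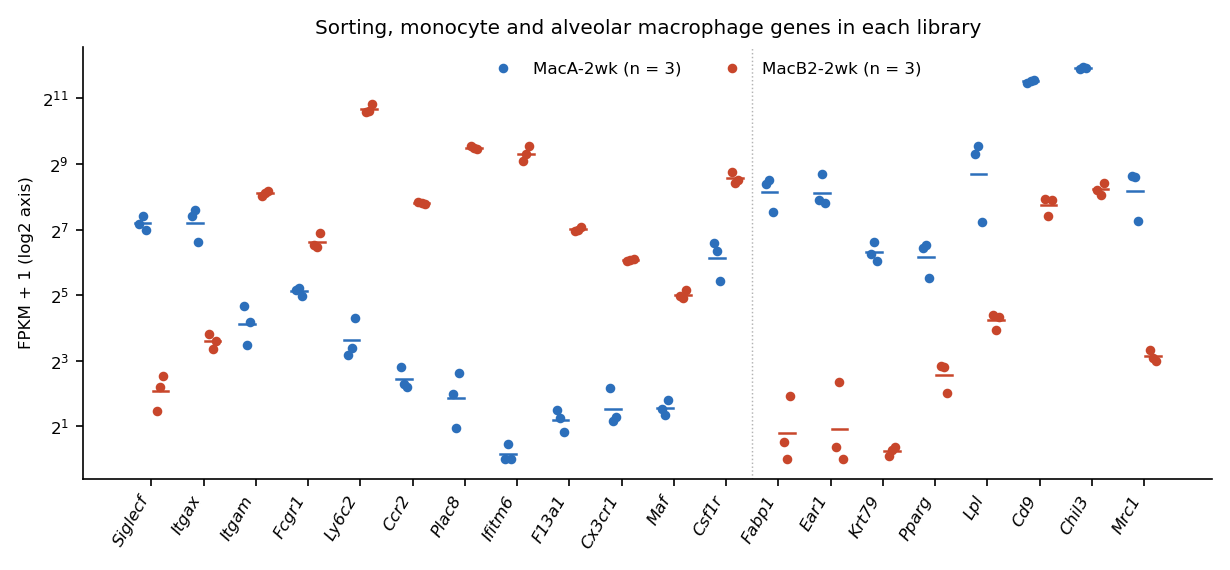
FPKM + 1 on a log2 axis for 20 genes in each MacA-2wk (blue) and MacB2-2wk (red) library, 3 points per group with the line at the mean of the log values. Left of the dotted line are sorting, monocyte and receptor genes and right of it alveolar macrophage genes, and the groups are apart in every gene shown.

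Between the populations, 1642 genes were called higher in MacB2-2wk (9.57% of those tested) and 1398 lower (8.15%). Counts of list members called below are to be read beside these shares. The median difference over all genes tested was 0.01, and 8617 genes (50.2%) had a positive difference. The 3 libraries of the groups did not overlap in 5695 genes (33.2%). When each library was rescaled to its protein-coding sum, the split moved to 1175 higher and 2107 lower (35.8% of calls higher, against 54.0%), with the median at -0.15, so a small median in either direction depends on this choice. Without MacA-2wk replicate 3, 1988 genes were called higher (11.6%) and 1556 lower (9.08%) of 17142 tested, and 2602 of the 3040 calls (85.6%) remained.

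**Figure D2:**
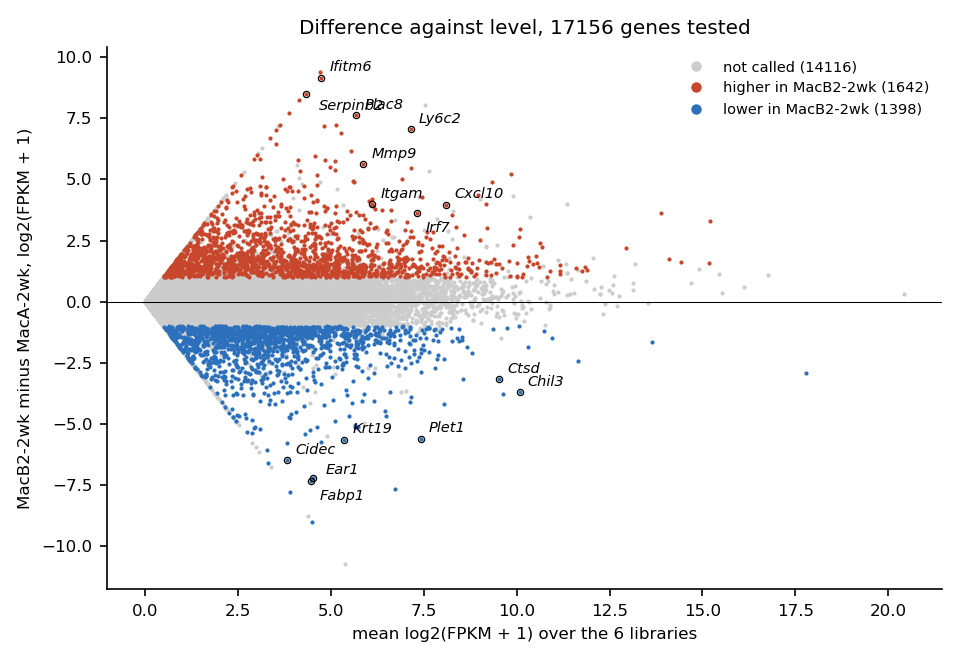
Log2 difference, MacB2-2wk minus MacA-2wk, against the mean log2(FPKM + 1) of the 6 libraries for each of the 17156 genes tested. Red and blue points are the 1642 and 1398 genes called higher and lower in MacB2-2wk, grey points were not called, and circles mark genes named in the text.

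The genes with the largest positive differences included several known from blood monocytes, with 2 serpins among them. Ifitm6, a member of the interferon-induced transmembrane family (chr7:141015699-141017924, minus strand), was at 0, 0.365 and 0 FPKM in MacA-2wk and 544, 636 and 741 FPKM in MacB2-2wk. Ifitm6 differed by 9.16 log2 units (SE 0.42, adjusted p = 1.81e-11). Serpinb2, an inhibitor of plasminogen activators, was at 0, 0 and 0.167 FPKM in MacA-2wk and 502, 388 and 289 FPKM in MacB2-2wk (log2 difference 8.51, SE 0.69, adjusted p = 2.87e-08). Both were under 1 FPKM in every MacA-2wk library. Plac8, a small cysteine-rich protein of myeloid cells, had 2.95, 0.917 and 5.23 FPKM in MacA-2wk and 753, 715 and 696 FPKM in MacB2-2wk (log2 difference 7.64, SE 0.34, adjusted p = 1.41e-11). The Ly6C antigen gene Ly6c2 had 7.94, 9.51 and 18.7 FPKM in MacA-2wk and 1525, 1579 and 1820 FPKM in MacB2-2wk (log2 difference 7.06, SE 0.37, adjusted p = 7.51e-11). Its near-identical neighbour Ly6c1 can share reads with it, so the level of each is uncertain. Ms4a4c, Serpinb10, Plbd1, Cd177, F13a1 and Runx3 were also among the 12 genes with the largest differences, from 5.78 for Runx3 to 6.91 for Ms4a4c. None of the 12 reached 20 FPKM in any MacA-2wk library.

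At the other end stood genes of lipid handling, keratins and channels. Fabp1, a fatty acid binding protein (chr6:71199827-71205023, plus strand), was at 333, 366 and 185 FPKM in MacA-2wk and 0.426, 0 and 2.79 FPKM in MacB2-2wk. Fabp1 differed by -7.34 log2 units (SE 0.71, adjusted p = 2.88e-07). Ear1, an eosinophil-associated ribonuclease with near-identical copies, was at 238, 410 and 222 FPKM in MacA-2wk and 0.291, 4.09 and 0 FPKM in MacB2-2wk (log2 difference -7.22, SE 0.72, adjusted p = 4.14e-07). Every MacB2-2wk library was under 5 FPKM for these genes. Cidec, a lipid droplet protein, was at 159, 188 and 79.0 FPKM in MacA-2wk and 0.506, 0.276 and 0.77 FPKM in MacB2-2wk (log2 difference -6.48, SE 0.46, adjusted p = 4.84e-09). The keratin genes Krt79 and Krt19 differed by -6.05 and -5.65, and Plet1, the most abundant of the 12 in MacA-2wk, was at 1548, 1497 and 724 FPKM in MacA-2wk and 16.6, 25.8 and 30.1 FPKM in MacB2-2wk. Kcnn3, a calcium-activated potassium channel, differed by -5.77, and Mcoln3, a cation channel of endosomes and lysosomes, by -5.42. Fpr1, the formyl peptide receptor, was at 196, 186 and 202 FPKM in MacA-2wk and 3.16, 2.71 and 2.23 FPKM in MacB2-2wk (log2 difference -5.73, SE 0.39, adjusted p = 3.04e-09). Cpne5, Mgst2 and B3gnt7 ended the 12 with differences of -5.37, -5.33 and -5.24.

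All 28 alveolar macrophage genes of the list were tested and called lower in MacB2-2wk, with a median difference of -4.33. Part of this count was set in advance, since Siglecf, a gate of MacA, is on the list. So are Fabp1, Ear1, Cidec, Krt79, Krt19, Plet1 and Mcoln3, named above, and the list was chosen with earlier results of these data known. The 28 calls are thus a description and no separate support. The highest levels were those of Chil3, a chitinase-like protein, at 3776, 4001 and 3899 FPKM in MacA-2wk and 292, 267 and 344 FPKM in MacB2-2wk. The tetraspanin gene Cd9 was at 2836, 2977 and 3045 FPKM in MacA-2wk and 244, 169 and 236 FPKM in MacB2-2wk. In each gene all 3 MacB2-2wk libraries were far lower (-3.69 and -3.78), but RNA of both was still clearly measured in MacB2-2wk. The cholesterol exporter gene Abcg1 had the smallest adjusted p of the list, at 619, 681 and 470.5 FPKM in MacA-2wk and 35.1, 27.4 and 37.6 FPKM in MacB2-2wk. Abcg1 differed by -4.10 log2 units (SE 0.19, adjusted p = 1.69e-11). Pparg, the nuclear receptor that sets the alveolar macrophage program, was at 85.0, 91.2 and 45.2 FPKM in MacA-2wk and 6.14, 6.01 and 3.02 FPKM in MacB2-2wk. Pparg differed by -3.61 log2 units (SE 0.32, adjusted p = 1.12e-07). Mrc1, the mannose receptor, was at 394, 392 and 153 FPKM in MacA-2wk and 9.12, 7.45 and 6.93 FPKM in MacB2-2wk. Lpl, lipoprotein lipase, was at 627, 743 and 149 FPKM in MacA-2wk and 20.2, 14.5 and 19.1 FPKM in MacB2-2wk. In these genes MacA-2wk replicate 3 was the lowest of its group while still above all MacB2-2wk libraries, and without it the differences were -3.92, -5.49 and -5.19. Marco, a scavenger receptor, varied most within MacA-2wk, at 718, 411 and 106 FPKM in MacA-2wk and 27.4, 2.4 and 6.58 FPKM in MacB2-2wk (log2 difference -5.13, SE 0.82, adjusted p = 0.000106). Ctsk, cathepsin K, had the smallest difference of the list (log2 difference -2.29, SE 0.60, adjusted p = 0.00802, at most 0.0526 over the alternatives).

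Of 16 classical monocyte genes 13 were called higher and none lower, with a median difference of 5.07. Ccr2, the receptor through which monocytes leave the marrow, was at 6.04, 3.9 and 3.62 FPKM in MacA-2wk and 226, 222 and 220.4 FPKM in MacB2-2wk. Ccr2 differed by 5.37 log2 units (SE 0.24, adjusted p = 1.41e-11). F13a1, the A subunit of coagulation factor XIII, was at 1.85, 1.41 and 0.787 FPKM in MacA-2wk and 124, 126 and 133 FPKM in MacB2-2wk. F13a1 differed by 5.80 log2 units (SE 0.26, adjusted p = 1.41e-11). S100a4, a calcium-binding protein, was at 87.4, 89.7 and 202 FPKM in MacA-2wk and 2803, 3298 and 4712 FPKM in MacB2-2wk. Ifitm3, an antiviral membrane protein, was at 109.6, 73.0 and 427 FPKM in MacA-2wk and 5295, 4920 and 6715 FPKM in MacB2-2wk. Ly6c1 (1.03, adjusted p = 0.303), Gda (0.57, adjusted p = 0.13) and Mgst1 (-0.02, adjusted p = 1) were not called.

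Nonclassical monocytes, the patrolling form, were represented by 14 genes, of which 10 were called higher and 1 lower (median 2.07). Cx3cr1, the fractalkine receptor, was at 3.48, 1.24 and 1.46 FPKM in MacA-2wk and 65.3, 66.9 and 67.0 FPKM in MacB2-2wk (log2 difference 4.53, SE 0.21, adjusted p = 2.01e-11). Emr4, an adhesion receptor, was at 0.411, 0.259 and 0.76 FPKM in MacA-2wk and 27.9, 25.5 and 23.4 FPKM in MacB2-2wk. Pou2f2, an Oct-family transcription factor, was at 1.51, 0 and 0 FPKM in MacA-2wk and 39.0, 32.5 and 25.9 FPKM in MacB2-2wk. Ace, angiotensin-converting enzyme, and Spn, the sialoglycoprotein CD43, were also higher (2.37 and 1.76). Treml4 (log2 difference 1.30, SE 0.43, adjusted p = 0.0346, at most 0.2 over the alternatives) and Nr4a1 (log2 difference 1.27, SE 0.41, adjusted p = 0.028, at most 0.123 over the alternatives) were called as well, but not without MacA-2wk replicate 3, where their adjusted p was 0.2 and 0.0664. Cd36, a fatty acid transporter shared with the lipid handling list, was the lower member, at 104, 102 and 92.1 FPKM in MacA-2wk and 28, 46.5 and 23.5 FPKM in MacB2-2wk. Cd36 differed by -1.63 log2 units (SE 0.34, adjusted p = 0.00122).

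Genes of interstitial and monocyte-derived macrophages were mixed: 11 of 19 were higher, 3 lower and 5 not called (median 1.33). With only the 2 groups in the fit, 7 were higher. The transcription factor gene Maf was at 1.86, 1.52 and 2.51 FPKM in MacA-2wk and 30.4, 29.2 and 34.5 FPKM in MacB2-2wk (log2 difference 3.46, SE 0.17, adjusted p = 4e-11). Apoe, the lipid carrier apolipoprotein E, was at 248, 132 and 45.5 FPKM in MacA-2wk and 1041, 873 and 956 FPKM in MacB2-2wk (log2 difference 3.05, SE 0.42, adjusted p = 1.93e-05). C1qa, a chain of the recognition subunit of the classical complement pathway, was at 58.4, 13.7 and 46.8 FPKM in MacA-2wk and 63.9, 65.1 and 85.4 FPKM in MacB2-2wk, with MacA-2wk replicate 2 far below the other MacA-2wk libraries. C1qa was called with a fold just over 2 (log2 difference 1.05, SE 0.34, adjusted p = 0.0298, at most 0.231 over the alternatives). C1qb was called as well (log2 difference 1.77, SE 0.33, adjusted p = 0.000562, at most 0.0672 over the alternatives), and C1qc was not, its fold being under 2 (log2 difference 0.93, SE 0.29, adjusted p = 0.0257). Trem2, a lipid-sensing receptor of macrophages, was at 87.9, 50.3 and 39.8 FPKM in MacA-2wk and 55.1, 50.8 and 81.4 FPKM in MacB2-2wk and was not called (log2 difference 0.12, SE 0.38, adjusted p = 0.881), nor were Cd163 (0.80), Fcrls (0.87) and Ms4a7 (0.10). The lower members were the tetraspanins Cd81 (log2 difference -1.77, SE 0.24, adjusted p = 1.34e-05) and Cd63 (log2 difference -2.28, SE 0.37, adjusted p = 0.000135) and the glycoprotein gene Gpnmb (log2 difference -2.12, SE 0.54, adjusted p = 0.00716, at most 0.052 over the alternatives).

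Among 32 myeloid transcription factors, 12 were called higher and 8 lower (median 0.40). Runx3, a runt-domain factor, was at 8.52, 1.1 and 1.88 FPKM in MacA-2wk and 241, 190.4 and 204 FPKM in MacB2-2wk (log2 difference 5.78, SE 0.44, adjusted p = 1.36e-08). Irf5, a factor of inflammatory gene induction, was at 89.7, 60.7 and 68.8 FPKM in MacA-2wk and 234, 207 and 307 FPKM in MacB2-2wk. The Krüppel-like factor gene Klf2 was at 48.4, 34.6 and 105.2 FPKM in MacA-2wk and 246, 261 and 233 FPKM in MacB2-2wk. Spi1, which encodes PU.1, was called (log2 difference 1.11, SE 0.31, adjusted p = 0.0132, at most 0.0786 over the alternatives), though not without MacA-2wk replicate 3 (0.73, adjusted p = 0.0758). The lower factors were Pparg, its partner Rxra (log2 difference -2.04, SE 0.20, adjusted p = 3.41e-07), the liver X receptor Nr1h3, and Bhlhe40, Bhlhe41, Egr2, Mitf and Tfec. Bhlhe41 was at 64.0, 63.4 and 32.9 FPKM in MacA-2wk and 2.85, 2.25 and 6.65 FPKM in MacB2-2wk, and Egr2, which is known to support alveolar macrophages, at 546, 633 and 593 FPKM in MacA-2wk and 119.5, 77.9 and 166 FPKM in MacB2-2wk. Egr2 differed by -2.34 log2 units (SE 0.37, adjusted p = 9.82e-05). Cebpb, the most abundant factor of the list, was at 1031, 1017 and 810.1 FPKM in MacA-2wk and 1217, 1088 and 1291 FPKM in MacB2-2wk and was not called (log2 difference 0.34, SE 0.34, adjusted p = 0.531), and Irf8 (0.49), Klf4 (0.37) and Cebpa (-0.90) were not called either.

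**Figure D3:**
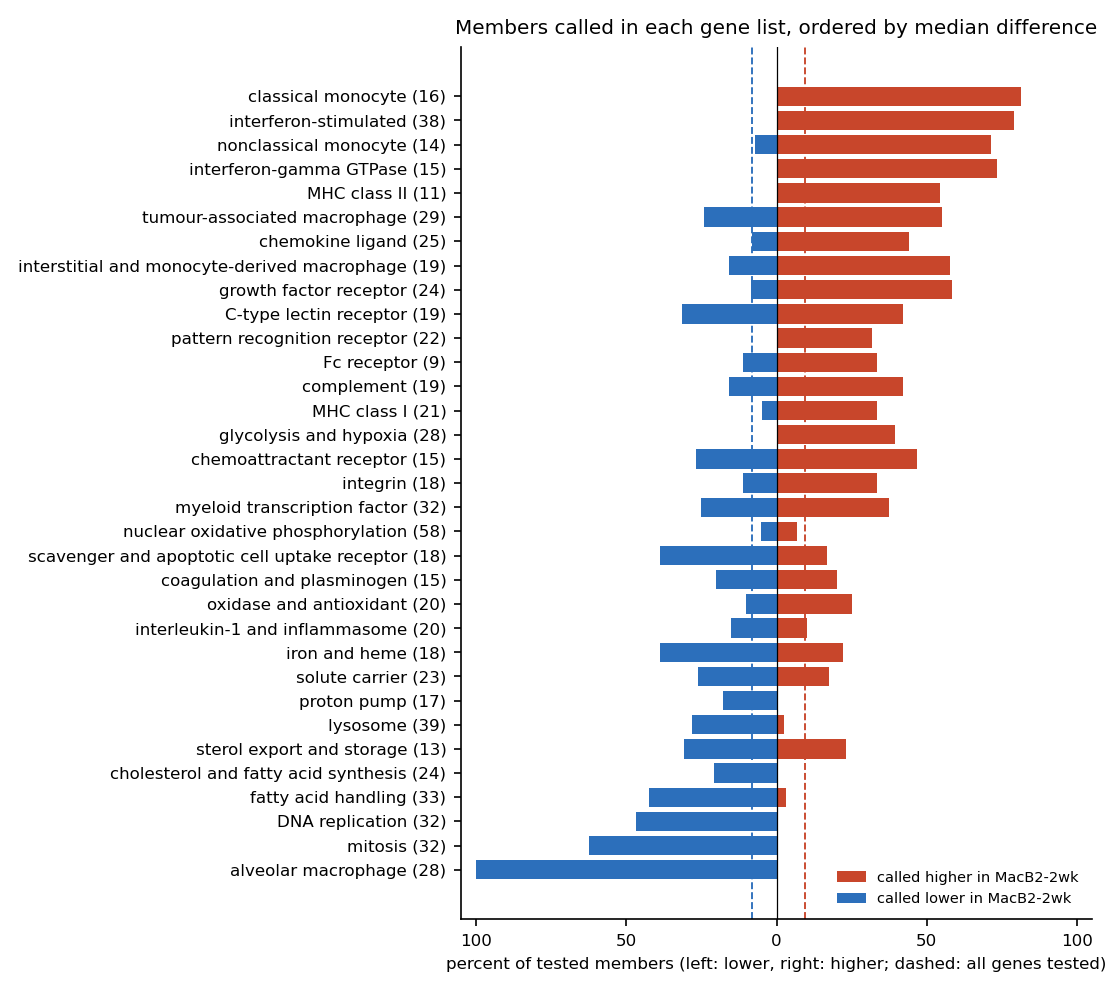
Percent of tested members called higher (red, to the right) and lower (blue, to the left) in MacB2-2wk for 33 gene lists, ordered by median difference, with the number of tested members in brackets. Dashed lines give the shares over all genes tested, 9.57% higher and 8.15% lower, and the alveolar macrophage list lies wholly on the left.

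Growth factor and cytokine receptors with their ligands were mostly higher, 14 of 24 called higher and 2 lower (median 1.29). Csf1r, the receptor for M-CSF on which monocytes and macrophages depend, was at 95.4, 80.0 and 41.8 FPKM in MacA-2wk and 432, 338 and 362 FPKM in MacB2-2wk. Csf1r differed by 2.44 log2 units (SE 0.25, adjusted p = 6.97e-07). Csf3r, the G-CSF receptor, was at 22.9, 27.6 and 28.8 FPKM in MacA-2wk and 109, 162 and 80.2 FPKM in MacB2-2wk (log2 difference 2.06, SE 0.27, adjusted p = 1.18e-05). Il10ra, the IL-10 receptor, was at 29.3, 26.4 and 13.3 FPKM in MacA-2wk and 104, 96.2 and 93.5 FPKM in MacB2-2wk (log2 difference 2.12, SE 0.22, adjusted p = 8.77e-07). Receptors for GM-CSF were not called: Csf2ra was at 344, 377 and 198 FPKM in MacA-2wk and 251, 269.5 and 237 FPKM in MacB2-2wk (log2 difference -0.23, SE 0.23, adjusted p = 0.538) and Csf2rb at 186, 185 and 77.3 FPKM in MacA-2wk and 114, 88.3 and 110.1 FPKM in MacB2-2wk. The log2 difference of Csf2rb was -0.42 (SE 0.27, adjusted p = 0.286). All 4 interferon receptor genes of the list were higher, with differences of 1.202 for Ifnar1, 1.48 for Ifnar2, 1.40 for Ifngr1 and 1.43 for Ifngr2. The TGFβ receptor genes went the other way, Tgfbr2 at 82.8, 92.3 and 54.8 FPKM in MacA-2wk and 25.9, 24.04 and 22.99 FPKM in MacB2-2wk (log2 difference -1.58, SE 0.16, adjusted p = 6.22e-07) and Tgfbr1 at -1.39, while the ligand Tgfb1 was higher, at 285, 294 and 139 FPKM in MacA-2wk and 669, 598 and 863 FPKM in MacB2-2wk. Tgfb1 differed by 1.62 log2 units (SE 0.30, adjusted p = 0.000472).

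Of 20 chemoattractant receptors 15 were tested, with 7 called higher and 4 lower (median 0.61). Beside Ccr2 and Cx3cr1, the chemerin receptor Cmklr1 was higher, at 9.02, 13.1 and 33.0 FPKM in MacA-2wk and 175, 169.8 and 262 FPKM in MacB2-2wk (log2 difference 3.56, SE 0.36, adjusted p = 4.51e-07), as were Cxcr4 (1.18) and C3ar1 (1.88). Ccr7 was called (log2 difference 1.76, SE 0.53, adjusted p = 0.0192, at most 0.145 over the alternatives), but its groups overlapped, at 0.624, 0.411 and 6.22 FPKM in MacA-2wk and 13.1, 5.44 and 6.07 FPKM in MacB2-2wk. Receptors for bacterial peptides and for complement C5a were lower. Fpr2 was at 94.1, 123 and 108 FPKM in MacA-2wk and 20.4, 23.4 and 25.4 FPKM in MacB2-2wk (log2 difference -2.18, SE 0.27, adjusted p = 4.97e-06). C5ar1 was at 285, 292 and 217 FPKM in MacA-2wk and 92.8, 62.8 and 120 FPKM in MacB2-2wk (log2 difference -1.55, SE 0.23, adjusted p = 5.24e-05). The IL-8 type receptor gene Cxcr1 was at 15.3, 19.9 and 8.33 FPKM in MacA-2wk and 0.16, 0 and 1.47 FPKM in MacB2-2wk (log2 difference -3.37, SE 0.35, adjusted p = 5.88e-07).

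Chemokine genes were called higher in 11 of 25 cases and lower in 2 (median 1.33). Of the interferon-induced ligands of CXCR3, Cxcl10 was at 118, 56.1 and 46.7 FPKM in MacA-2wk and 953, 891 and 1471 FPKM in MacB2-2wk (log2 difference 3.97, SE 0.32, adjusted p = 2.93e-08) and Cxcl9 at 15.1, 9.82 and 7.09 FPKM in MacA-2wk and 56.7, 63.5 and 56.8 FPKM in MacB2-2wk. Cxcl9 differed by 2.42 log2 units (SE 0.31, adjusted p = 9.37e-06). A further ligand of this family, Cxcl11, was listed at 0 FPKM in all 3 MacA-2wk libraries and was at 2.24, 2 and 2.65 FPKM in MacB2-2wk. Ccl2, the ligand of CCR2, was at 36.9, 35.8 and 85.8 FPKM in MacA-2wk and 199, 189 and 231 FPKM in MacB2-2wk (log2 difference 2.06, SE 0.31, adjusted p = 4.83e-05). Ccl5 was at 15.2, 6.39 and 11.8 FPKM in MacA-2wk and 112, 102 and 122 FPKM in MacB2-2wk (log2 difference 3.29, SE 0.32, adjusted p = 3.41e-07). Ccl9 was called (log2 difference 4.37, SE 1.12, adjusted p = 0.00682, at most 0.0706 over the alternatives), with 1026, 31.1 and 38.4 FPKM in MacA-2wk and 1555, 3324 and 2229 FPKM in MacB2-2wk. MacA-2wk replicate 1 was thus far above the other MacA-2wk libraries. Ccl6, the most abundant chemokine of MacA-2wk, was lower, at 4041, 3693 and 2427 FPKM in MacA-2wk and 1158, 1089 and 1284 FPKM in MacB2-2wk (log2 difference -1.49, SE 0.31, adjusted p = 0.00128), and so was Cx3cl1, the ligand of CX3CR1 (log2 difference -1.84, SE 0.41, adjusted p = 0.00251). Ccl3 (-0.20), Cxcl2 (-0.33) and Cxcl1 (-0.71) were not called.

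Interferon-stimulated genes, induced by type I interferon through ISGF3, were called higher in 30 of 38 cases and lower in none (median 2.11), and all 38 had a positive difference. Slfn5, a Schlafen protein, was at 16.0, 12.9 and 11.6 FPKM in MacA-2wk and 205, 168 and 171 FPKM in MacB2-2wk (log2 difference 3.66, SE 0.21, adjusted p = 2.31e-10). Irf7, the factor that amplifies the interferon response, was at 48.3, 41.2 and 45.1 FPKM in MacA-2wk and 530.2, 459 and 712 FPKM in MacB2-2wk. Irf7 differed by 3.61 log2 units (SE 0.35, adjusted p = 3.28e-07). The ubiquitin-like modifier Isg15 was at 20.4, 16.9 and 29.8 FPKM in MacA-2wk and 157, 158 and 226 FPKM in MacB2-2wk (log2 difference 2.97, SE 0.30, adjusted p = 5.08e-07). In each of these 3 genes the groups were apart, and MacB2-2wk replicate 3, the least deep library, was the highest in Irf7 and Isg15. The 2′-5′ oligoadenylate synthetase Oas3 was at 9.06, 6.88 and 5.72 FPKM in MacA-2wk and 47.2, 39.9 and 55.1 FPKM in MacB2-2wk (log2 difference 2.56, SE 0.29, adjusted p = 1.65e-06), and the antiviral radical enzyme Rsad2 at 7.84, 5.95 and 5.8 FPKM in MacA-2wk and 51.0, 56.4 and 80.3 FPKM in MacB2-2wk. Rsad2 differed by 3.06 log2 units (SE 0.35, adjusted p = 1.96e-06). The 8 members not called included Stat2 (log2 difference 0.64, SE 0.21, adjusted p = 0.0349), a part of ISGF3 itself, whose fold was under 2. Ifi204 (2.85) and Ifi205 (3.50) are related genes whose reads may in part be shared.

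Promoters were read for these genes because the list moved in 1 direction. RefSeq promoters (GRCm38.p6, 250 bases before to 50 after the start) were held for 27 of the 38 members. The letters GAAANNGAA on either strand, the core of the interferon-stimulated response element, occurred in 17 of the 27 (63.0%), against 2638 of 27025 genes (9.76%). Members were listed as genes known to respond to interferon, so this share describes the list and not the difference between MacB2 and MacA. Of the 17 members with the letters 12 were called higher, with a median difference of 1.43, and of the 10 without them 8 were called higher, with a median of 2.38. The 250 bases before the start are shown for Isg15 (chr4:156200819-156201068, minus strand) and Oas3 (chr5:120777660-120777909, minus strand), 5′ to 3′ along the gene, with capitals on the letters found, overlapping matches joined. In Isg15 the first match begins 78 bases before the start and in Oas3 75 bases before it.
Isg15: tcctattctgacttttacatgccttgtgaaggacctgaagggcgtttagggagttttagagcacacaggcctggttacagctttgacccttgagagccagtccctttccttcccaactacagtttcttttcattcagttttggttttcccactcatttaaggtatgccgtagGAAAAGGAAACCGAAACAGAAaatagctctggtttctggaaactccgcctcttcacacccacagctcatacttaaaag
Oas3: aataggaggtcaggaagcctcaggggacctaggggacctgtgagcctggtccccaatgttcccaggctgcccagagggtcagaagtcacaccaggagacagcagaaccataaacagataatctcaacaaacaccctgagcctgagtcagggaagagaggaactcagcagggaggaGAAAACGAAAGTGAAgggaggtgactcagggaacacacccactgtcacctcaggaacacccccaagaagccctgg

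The GTPases induced by interferon-γ, which act on the vacuoles of pathogens, numbered 16, of which 15 were tested and 11 called higher (median 1.6), or 7 with a pseudocount of 5. Ifi47 was at 8.29, 9.57 and 12.3 FPKM in MacA-2wk and 60.9, 66.8 and 66.9 FPKM in MacB2-2wk (log2 difference 2.59, SE 0.24, adjusted p = 2.04e-07) and Gbp5 at 3.89, 3.39 and 2.5 FPKM in MacA-2wk and 20.7, 20.6 and 24.3 FPKM in MacB2-2wk. Gbp5 differed by 2.43 log2 units (SE 0.25, adjusted p = 5.93e-07). Tgtp2, with its near-identical copy Tgtp1, was at 7.61, 9.03 and 27.2 FPKM in MacA-2wk and 136, 203 and 139 FPKM in MacB2-2wk (log2 difference 3.55, SE 0.49, adjusted p = 1.84e-05). Gbp8 had the most negative difference of the list and was not called (log2 difference -1.18, SE 0.43, adjusted p = 0.055).

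Genes of antigen presentation on MHC class II were called higher in 6 of 11 cases (median 1.53). H2-Ab1, a class II beta chain, was at 174, 484 and 487 FPKM in MacA-2wk and 1059, 867 and 1232 FPKM in MacB2-2wk. H2-Ab1 differed by 1.59 log2 units (SE 0.32, adjusted p = 0.000973, at most 0.0547 over the alternatives). Cd74, the invariant chain, was at 435, 1170 and 724 FPKM in MacA-2wk and 2280, 1905 and 2712 FPKM in MacB2-2wk (log2 difference 1.67, SE 0.34, adjusted p = 0.00101), and the class II transactivator Ciita at 2.4, 4.85 and 1.85 FPKM in MacA-2wk and 15.4, 10.8 and 11.2 FPKM in MacB2-2wk. Ciita differed by 1.79 log2 units (SE 0.27, adjusted p = 5.34e-05). In H2-Ab1 and Cd74 the lowest level was in MacA-2wk replicate 1, and MacA-2wk was far from empty of class II RNA. H2-DMa, which loads peptide, was at 191, 307 and 253 FPKM in MacA-2wk and 196, 158 and 198 FPKM in MacB2-2wk and was not called. The log2 difference of H2-DMa was -0.42 (SE 0.22, adjusted p = 0.179). Of 21 MHC class I genes, 7 were higher and 1 lower (median 0.69). Tap1, the peptide transporter, was at 21.1, 18.97 and 31.1 FPKM in MacA-2wk and 66.3, 81.8 and 83.2 FPKM in MacB2-2wk (log2 difference 1.68, SE 0.24, adjusted p = 3.74e-05). H2-T23 was at 73.1, 101 and 59.5 FPKM in MacA-2wk and 189, 222 and 219 FPKM in MacB2-2wk (log2 difference 1.45, SE 0.23, adjusted p = 8e-05). B2m, the light chain, was at 6719, 6844 and 7182 FPKM in MacA-2wk and 11070, 12020 and 11860 FPKM in MacB2-2wk and not called (log2 difference 0.75, SE 0.29, adjusted p = 0.0698), while the chaperone Canx was lower (log2 difference -1.26, SE 0.19, adjusted p = 5.71e-05).

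Of 33 members of the fatty acid list 14 were called lower and 1 higher (median -0.89). Beside Fabp1, Lpl and Cidec, the lysosomal acid lipase Lipa was at 330.3, 374 and 284 FPKM in MacA-2wk and 51.7, 48.2 and 48.5 FPKM in MacB2-2wk. Lipa differed by -2.70 log2 units (SE 0.19, adjusted p = 4.7e-09). Plin2, which coats lipid droplets, was at 708, 656 and 391 FPKM in MacA-2wk and 184, 199 and 216 FPKM in MacB2-2wk (log2 difference -1.50, SE 0.18, adjusted p = 5e-06). Hadha of mitochondrial β-oxidation was lower as well (log2 difference -1.30, SE 0.19, adjusted p = 3.71e-05), while Cpt1a, the carnitine transferase that admits fatty acids to mitochondria, had a fold just under 2 (log2 difference -0.96, SE 0.20, adjusted p = 0.00128). Lipe, hormone-sensitive lipase, was the higher member, at 1.85, 1.78 and 4.85 FPKM in MacA-2wk and 8.66, 10.6 and 8.19 FPKM in MacB2-2wk (log2 difference 1.49, SE 0.25, adjusted p = 0.000176). Rescaling to protein-coding sums raised the number called lower to 22.

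Cholesterol and fatty acid synthesis had 25 members, 24 tested, with 5 called lower and none higher (median -0.63). The number called lower was 3 with a pseudocount of 5 or with only the 2 groups in the fit. Dhcr7, the last enzyme of cholesterol synthesis, was at 39.5, 43.7 and 48.6 FPKM in MacA-2wk and 13.4, 14.4 and 15.5 FPKM in MacB2-2wk (log2 difference -1.54, SE 0.30, adjusted p = 0.000781). Sqle, squalene epoxidase, was at 21.3, 19.4 and 29.8 FPKM in MacA-2wk and 8.07, 5.95 and 11.3 FPKM in MacB2-2wk (log2 difference -1.39, SE 0.24, adjusted p = 0.000249). Without MacA-2wk replicate 3, Mvk (-1.03) and Nsdhl (-0.94) no longer passed, and with rescaling 9 members did. Fasn (-0.73) and Scd1 (-0.56) were not called. For sterol export and storage, 3 of 13 tested members were higher and 4 lower (median -0.59). The exporters Abcg1 (-4.10) and Abca1 (log2 difference -1.45, SE 0.27, adjusted p = 0.000499) were lower, and Abca9, an ABC transporter, was higher, at 0.754, 0.167 and 0.831 FPKM in MacA-2wk and 9.68, 7.2 and 9.03 FPKM in MacB2-2wk. Abca9 differed by 2.62 log2 units (SE 0.22, adjusted p = 3.64e-08).

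Lysosomal genes were called lower in 11 of 39 cases and higher in 1 (median -0.46). Ctsd, the aspartic protease cathepsin D, was at 3009, 2671 and 1325 FPKM in MacA-2wk and 251, 230.2 and 249 FPKM in MacB2-2wk (log2 difference -3.17, SE 0.30, adjusted p = 2.08e-07). Ctss, cathepsin S, was at 1750, 1893 and 1052 FPKM in MacA-2wk and 821, 662 and 776 FPKM in MacB2-2wk. Ctss differed by -1.01 log2 units (SE 0.20, adjusted p = 0.000849, at most 0.0587 over the alternatives). The sterol carriers of the lysosome parted: Npc1 was lower (log2 difference -1.65, SE 0.27, adjusted p = 0.000123) and Npc2 higher, at 114, 106 and 91.4 FPKM in MacA-2wk and 248, 243 and 304 FPKM in MacB2-2wk. Npc2 differed by 1.34 log2 units (SE 0.21, adjusted p = 7.2e-05). Psap (0.12), Ctsa (0.16), Cd68 (-0.40) and Lamp1 (-0.44) were not called. Of 17 vacuolar proton pump genes 3 were lower (median -0.46), led by Atp6v0d2, an isoform of macrophages and osteoclasts, at 479.6, 539 and 361 FPKM in MacA-2wk and 24.4, 12.2 and 15.7 FPKM in MacB2-2wk (log2 difference -4.68, SE 0.61, adjusted p = 1.16e-05), and 14 were not called.

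Nuclear genes of oxidative phosphorylation showed no common direction: 4 of 58 were higher and 3 lower (median 0.15), shares below the 9.57% and 8.15% of all genes. Rescaling turned their median to -0.14 with 3 higher and 8 lower, and without MacA-2wk replicate 3 the number higher was 7. Glycolysis and hypoxia genes were called higher in 11 of 28 cases and lower in none (median 0.62). In naive lung 10 of the 28 were higher in MacB2-N than in MacA-N and 5 lower (median 0.43). In none of them was the difference called different between tumour and naive lung. Ndrg1, induced by hypoxia, was at 14.2, 2.57 and 12.2 FPKM in MacA-2wk and 209, 264 and 346 FPKM in MacB2-2wk (log2 difference 4.904, SE 0.45, adjusted p = 1.48e-07). Slc2a1, the glucose transporter GLUT1, was at 84.2, 53.4 and 116 FPKM in MacA-2wk and 312, 226 and 523 FPKM in MacB2-2wk (log2 difference 2.04, SE 0.41, adjusted p = 0.000988). Slc16a3, a lactate exporter, was at 41.4, 28.8 and 37.8 FPKM in MacA-2wk and 126, 138 and 146 FPKM in MacB2-2wk (log2 difference 1.91, SE 0.21, adjusted p = 1.08e-06). Vegfa, the angiogenic factor, was at 22.3, 17.1 and 38.4 FPKM in MacA-2wk and 154, 124 and 125 FPKM in MacB2-2wk (log2 difference 2.40, SE 0.37, adjusted p = 6.24e-05). The groups were apart in these genes, but Aldoa (log2 difference -0.59, SE 0.19, adjusted p = 0.0257) and Ldha (log2 difference -0.58, SE 0.19, adjusted p = 0.0305) of the same pathway had negative differences that were not called, and Gapdh (0.21) and Pkm (0.10) were not called either.

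Genes of the cell cycle were lower in MacB2-2wk. DNA replication had 15 of 32 members lower and none higher (median -0.95), and mitosis 20 of 32 lower and none higher (median -1.37). For mitosis the number called lower was 12 with a pseudocount of 5 and 11 with only the 2 groups in the fit. Mcm3, a subunit of the replicative helicase, was at 47.6, 34.4 and 31.5 FPKM in MacA-2wk and 10.1, 9.28 and 11.02 FPKM in MacB2-2wk (log2 difference -1.78, SE 0.22, adjusted p = 4.89e-06), and Mcm2, Mcm5, Mcm6 and Mcm7 were lower as well, from -1.89 for Mcm6 to -1.52 for Mcm5. Gins2, which joins the same helicase, was at 36.3, 13.7 and 13.7 FPKM in MacA-2wk and 2.21, 2.02 and 2.86 FPKM in MacB2-2wk (log2 difference -2.58, SE 0.36, adjusted p = 2.32e-05). Pcna (-0.10) and Tk1 (0.02) were not called. Among mitotic genes, the checkpoint kinase Bub1b was at 39.1, 21.9 and 31.7 FPKM in MacA-2wk and 3.98, 3.81 and 5.24 FPKM in MacB2-2wk (log2 difference -2.55, SE 0.46, adjusted p = 0.000362) and the cyclin Ccnb2 at 16.2, 15.4 and 16.0 FPKM in MacA-2wk and 3.85, 1.96 and 5.61 FPKM in MacB2-2wk. Ccnb2 differed by -1.89 log2 units (SE 0.31, adjusted p = 0.000123). Mki67, the proliferation antigen Ki-67, was at 43.1, 27.8 and 4.82 FPKM in MacA-2wk and 5.14, 3.24 and 2.97 FPKM in MacB2-2wk. Mki67 differed by -2.05 log2 units (SE 0.53, adjusted p = 0.00734, at most 0.118 over the alternatives). MacA-2wk replicate 3 was below MacB2-2wk replicate 1, and the Mki67 difference without it was -2.92 (adjusted p = 2.06e-05). With MacA-2wk replicate 3 left out 26 mitotic genes were called lower, and with only the libraries of the 2 groups in the fit 11 were.

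Mitotic promoters share known letters, which were looked for because the list moved in 1 direction. TTTGAA on either strand, the core of the cell cycle homology region, was in 20 of 27 mitotic members with a promoter (74.1%), in 3 of 27 replication members (11.1%) and in 5466 of 27025 genes (20.2%). CCAAT, searched for on both strands, was in 22 of 27 mitotic members (81.5%), 16 of 27 replication members (59.3%) and 11096 genes (41.1%). These shares describe the lists and not the difference between MacB2 and MacA. Of the 20 mitotic members with TTTGAA 12 were called lower (median -1.25), and of the 7 without it 4 were (median -1.62). The 250 bases before the start are given for Top2a, a topoisomerase of dividing cells (chr11:99024190-99024439, minus strand), and Ube2c, a ubiquitin-conjugating enzyme of mitotic exit (chr2:164769679-164769928, plus strand), with TTTGAA or its reverse complement in capitals. Top2a was called lower (log2 difference -1.13, SE 0.34, adjusted p = 0.0179, at most 0.105 over the alternatives), and Ube2c had a fold under 2 (log2 difference -0.84, SE 0.31, adjusted p = 0.0576).
Top2a: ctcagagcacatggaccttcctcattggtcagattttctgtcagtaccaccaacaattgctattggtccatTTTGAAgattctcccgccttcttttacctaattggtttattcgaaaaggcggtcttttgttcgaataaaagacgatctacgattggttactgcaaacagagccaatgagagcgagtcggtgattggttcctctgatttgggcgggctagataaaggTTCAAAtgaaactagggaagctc
Ube2c: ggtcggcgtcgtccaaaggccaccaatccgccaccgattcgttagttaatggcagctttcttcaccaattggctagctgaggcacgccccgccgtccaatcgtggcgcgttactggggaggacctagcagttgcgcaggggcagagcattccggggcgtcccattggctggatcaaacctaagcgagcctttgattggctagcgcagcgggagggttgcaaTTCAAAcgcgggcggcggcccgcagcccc

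Receptors for IgG and for microbes were partly higher. Of 10 Fc receptor genes 9 were tested, 3 higher and 1 lower (median 0.85). Fcer1g, the shared signalling chain, was at 2830, 2673 and 1856 FPKM in MacA-2wk and 5626, 5431 and 7036 FPKM in MacB2-2wk (log2 difference 1.31, SE 0.34, adjusted p = 0.00695). Fcgrt, the neonatal receptor that recycles IgG, was at 87.7, 92.5 and 104 FPKM in MacA-2wk and 15.9, 15.4 and 13.8 FPKM in MacB2-2wk (log2 difference -2.58, SE 0.14, adjusted p = 1.71e-10). Pattern recognition receptors were higher in 7 of 22 cases and lower in none (median 0.87). Tlr9, the receptor for unmethylated DNA, had the smallest adjusted p of all listed genes, at 2.44, 1.38 and 1.71 FPKM in MacA-2wk and 110.3, 106 and 123 FPKM in MacB2-2wk. Tlr9 differed by 5.34 log2 units (SE 0.18, adjusted p = 4.53e-13). Tlr13 was called (log2 difference 4.29, SE 0.93, adjusted p = 0.00189) at 159, 21.3 and 16.1 FPKM in MacA-2wk and 655, 468 and 1482 FPKM in MacB2-2wk, with MacA-2wk replicate 1 far above its group. Nod2, a cytosolic sensor of peptidoglycan, was at 6.01, 3.99 and 1.81 FPKM in MacA-2wk and 24.4, 21.6 and 20.3 FPKM in MacB2-2wk (log2 difference 2.32, SE 0.28, adjusted p = 3.69e-06). Tlr2 (-0.89), Tlr4 (-0.57) and Tlr7 (0.46) were not called.

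Interleukin-1 and inflammasome genes were called higher in 2 of 20 cases (10.0%) and lower in 3 (15.0%), with a median of -0.23. The shares over all genes tested were 9.57% and 8.15%. Il18, an alveolar macrophage gene of the list above, was at 178, 164 and 147 FPKM in MacA-2wk and 5.06, 17.8 and 12.1 FPKM in MacB2-2wk. Il18 differed by -3.84 log2 units (SE 0.35, adjusted p = 1.16e-07). Il1a was at 186, 98.8 and 45.9 FPKM in MacA-2wk and 15.5, 10.6 and 6.65 FPKM in MacB2-2wk (log2 difference -3.07, SE 0.50, adjusted p = 0.000134). Tnf was lower too (log2 difference -1.24, SE 0.32, adjusted p = 0.00704). Il1b was at 1020, 629.7 and 279.6 FPKM in MacA-2wk and 1602, 1283 and 1221 FPKM in MacB2-2wk and did not pass the test (log2 difference 1.27, SE 0.46, adjusted p = 0.052), and Il1r2, the decoy receptor, was higher (log2 difference 1.96, SE 0.53, adjusted p = 0.0103, at most 0.0549 over the alternatives). Of 19 complement genes, 8 were higher and 3 lower (median 0.71). With a pseudocount of 5 the number higher was 5, and with only the 2 groups in the fit 4. C3, the central component, was at 35.7, 39.6 and 11.3 FPKM in MacA-2wk and 117, 149 and 152 FPKM in MacB2-2wk (log2 difference 2.40, SE 0.46, adjusted p = 0.000713), while Cfb, factor B of the alternative pathway, was lower at 64.6, 64.5 and 26.4 FPKM in MacA-2wk and 16.96, 16.8 and 20.8 FPKM in MacB2-2wk (log2 difference -1.36, SE 0.28, adjusted p = 0.00122, at most 0.057 over the alternatives), as was C1ra (log2 difference -1.81, SE 0.23, adjusted p = 9.89e-06). Cfd, factor D, was listed at 0 FPKM in all 3 MacA-2wk libraries and was at 1.23, 1.16 and 2.69 FPKM in MacB2-2wk.

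C-type lectins, receptors for sugars, went both ways, 8 higher and 6 lower of 19 (median 0.92). Clec4a1 was at 3.82, 0.899 and 6.63 FPKM in MacA-2wk and 138, 146 and 156 FPKM in MacB2-2wk (log2 difference 5.16, SE 0.32, adjusted p = 6.85e-10). Cd209a, a DC-SIGN homologue, was at 1.54, 0.914 and 0.983 FPKM in MacA-2wk and 24.1, 12.5 and 23.9 FPKM in MacB2-2wk (log2 difference 3.26, SE 0.34, adjusted p = 7.89e-07). Clec7a, the β-glucan receptor Dectin-1, was lower at 625, 652 and 372 FPKM in MacA-2wk and 191, 164 and 162 FPKM in MacB2-2wk (log2 difference -1.63, SE 0.24, adjusted p = 3.87e-05), and so was Clec4n, Dectin-2 (log2 difference -2.12, SE 0.37, adjusted p = 0.000239). Receptors for scavenging and for uptake of dying cells were lower in 7 of 18 cases and higher in 3 (median 0.14, and -0.01 with rescaling). None was called higher with a pseudocount of 5 or with only the 2 groups in the fit, and 1 without MacA-2wk replicate 2. Without MacA-2wk replicate 3 the median was -0.05. Mertk was at 149, 163 and 72.9 FPKM in MacA-2wk and 5.16, 6.88 and 4.75 FPKM in MacB2-2wk (log2 difference -4.22, SE 0.46, adjusted p = 1.32e-06) and its relative Axl at 604, 653 and 488 FPKM in MacA-2wk and 68.1, 79.9 and 117 FPKM in MacB2-2wk. Axl differed by -2.73 log2 units (SE 0.35, adjusted p = 7.89e-06). Olr1, a receptor for oxidised lipoprotein, was at 1770, 1463 and 564 FPKM in MacA-2wk and 152, 145 and 86.4 FPKM in MacB2-2wk (log2 difference -3.18, SE 0.47, adjusted p = 3.96e-05). Gas6, a ligand of Mertk and Axl, was among the higher members though low, at 0.668, 0.407 and 1.05 FPKM in MacA-2wk and 2.21, 5.01 and 2.65 FPKM in MacB2-2wk. Gas6 differed by 1.29 log2 units (SE 0.27, adjusted p = 0.00142, at most 0.0685 over the alternatives).

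Integrins and selectin ligands were higher in 6 of 18 tested genes and lower in 2 (median 0.43). Itga4, a chain of the receptor for VCAM-1, was at 26.1, 20.7 and 12.2 FPKM in MacA-2wk and 152, 105.3 and 95.1 FPKM in MacB2-2wk. Itga4 differed by 2.55 log2 units (SE 0.24, adjusted p = 1.6e-07). Its partner Itgb7 was at 1.84, 5.99 and 9.76 FPKM in MacA-2wk and 73.3, 71.0 and 79.2 FPKM in MacB2-2wk (log2 difference 3.66, SE 0.39, adjusted p = 9.17e-07). Itgb2, the common chain of CD11b and CD11c, was at 769, 778 and 329 FPKM in MacA-2wk and 356, 335 and 352 FPKM in MacB2-2wk and was not called. The log2 difference of Itgb2 was -0.74 (SE 0.28, adjusted p = 0.056).

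Genes often described in tumour-associated macrophages were higher in 16 of 29 tested cases and lower in 7 (median 1.34). In naive lung, without a tumour, 15 of these genes were higher in MacB2-N than in MacA-N and 5 lower (median 1.10). In none of them was the difference called different between tumour and naive lung. Arg1, arginase, was at 26.2, 7.95 and 5.09 FPKM in MacA-2wk and 93.2, 46.4 and 140.4 FPKM in MacB2-2wk (log2 difference 2.91, SE 0.44, adjusted p = 5.38e-05). Its level varied widely within both groups, but the lowest MacB2-2wk library was above the highest MacA-2wk library. Mmp9, a gelatinase also stored by neutrophils, was at 8.01, 4.04 and 11.47 FPKM in MacA-2wk and 629.9, 263 and 415 FPKM in MacB2-2wk (log2 difference 5.63, SE 0.75, adjusted p = 1.29e-05). Thbs1, thrombospondin, was at 31.8, 11.4 and 23.3 FPKM in MacA-2wk and 1177, 738 and 958 FPKM in MacB2-2wk (log2 difference 5.46, SE 0.55, adjusted p = 4.51e-07). Ptgs2, the inducible cyclooxygenase, was at 20.2, 5.95 and 11.8 FPKM in MacA-2wk and 129.5, 89.2 and 87.8 FPKM in MacB2-2wk (log2 difference 3.04, SE 0.35, adjusted p = 2.31e-06). The costimulator Cd40 was at 4.72, 4.46 and 1.89 FPKM in MacA-2wk and 66.6, 69.5 and 125 FPKM in MacB2-2wk. Cd86, a further costimulator, was at 22.5, 28.9 and 15.5 FPKM in MacA-2wk and 124, 81.7 and 93.1 FPKM in MacB2-2wk. Of the 7 lower members, Cd274, the checkpoint ligand PD-L1, was at 67.2, 64.4 and 37.3 FPKM in MacA-2wk and 18.6, 12.6 and 13.7 FPKM in MacB2-2wk (log2 difference -1.82, SE 0.26, adjusted p = 2.94e-05) and Spp1, osteopontin, at 717, 314 and 299 FPKM in MacA-2wk and 109, 59.4 and 134 FPKM in MacB2-2wk. Spp1 differed by -2.08 log2 units (SE 0.45, adjusted p = 0.00205). The EGF receptor ligands Areg (log2 difference -2.04, SE 0.31, adjusted p = 6.69e-05) and Ereg (log2 difference -2.28, SE 0.33, adjusted p = 3.01e-05) were lower, as were Pdcd1lg2 (-1.2), Ptgs1 (-1.33) and Hmox1 (log2 difference -1.08, SE 0.35, adjusted p = 0.0296, at most 0.15 over the alternatives). Retnla (log2 difference 2.12, SE 0.90, adjusted p = 0.0946) and Il10 (log2 difference 0.98, SE 0.41, adjusted p = 0.0912) did not pass the test. Some of the genes named here as not called did pass without MacA-2wk replicate 3. They were Ly6c1 (1.96, adjusted p = 0.0257), C1qc (1.11, adjusted p = 0.015), Retnla (3.40, adjusted p = 0.00305) and Cebpa (-1.01, adjusted p = 0.00345). Cpt1a (-1.22, adjusted p = 5.5e-05), Gbp8 (-1.39, adjusted p = 0.0404), Itgb2 (-1.15, adjusted p = 0.000877) and Tlr2 (-1.08, adjusted p = 0.00542) passed as well.

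Coagulation and plasminogen genes were called higher in 3 of 15 tested cases (F13a1, Serpinb2 and F5) and lower in 3 (median 0.13, and -0.16 with rescaling). F5, coagulation factor V, was at 0.034, 0.134 and 0.447 FPKM in MacA-2wk and 18.3, 21.6 and 11.02 FPKM in MacB2-2wk (log2 difference 3.86, SE 0.35, adjusted p = 1.08e-07). F7, factor VII, was lower at 363, 325 and 107 FPKM in MacA-2wk and 13.3, 12.99 and 12.8 FPKM in MacB2-2wk (log2 difference -4.06, SE 0.53, adjusted p = 1.1e-05). Iron and heme genes were higher in 4 of 18 tested and lower in 7 (median -0.26). The ferritin chains were lower: Ftl1 was at 10430, 7619 and 5211 FPKM in MacA-2wk and 1473, 1161 and 1563 FPKM in MacB2-2wk (log2 difference -2.42, SE 0.25, adjusted p = 7.12e-07) and Fth1 at 30720, 28340 and 12830 FPKM in MacA-2wk and 6443, 6565 and 8795 FPKM in MacB2-2wk. Fth1 differed by -1.64 log2 units (SE 0.34, adjusted p = 0.0014, at most 0.0563 over the alternatives). Slc40a1, the iron exporter ferroportin, was lower (log2 difference -2.54, SE 0.45, adjusted p = 0.000314), and Slc11a1, which moves iron out of phagosomes, was higher, at 85.2, 45.6 and 43.3 FPKM in MacA-2wk and 375, 401 and 279.8 FPKM in MacB2-2wk. Slc11a1 differed by 2.63 log2 units (SE 0.31, adjusted p = 3.41e-06).

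Oxidase and antioxidant genes were higher in 5 of 20 and lower in 2 (median 0.06). With rescaling they were higher in 3 and lower in 6 (median -0.24), and without MacA-2wk replicate 3 lower in 4. Prdx1, a peroxiredoxin, was at 361, 391 and 321 FPKM in MacA-2wk and 79.2, 79.4 and 118 FPKM in MacB2-2wk (log2 difference -1.97, SE 0.25, adjusted p = 7.31e-06), and Gclm of glutathione synthesis was lower (log2 difference -1.85, SE 0.23, adjusted p = 7e-06), while Rac2 (log2 difference 1.47, SE 0.21, adjusted p = 3.59e-05) and Prdx5 (log2 difference 1.37, SE 0.27, adjusted p = 0.000732) were higher. Cybb, the catalytic subunit of the phagocyte oxidase, was not called (log2 difference 0.78, SE 0.29, adjusted p = 0.0592). Among 23 solute carriers, 4 were higher, 2 with a pseudocount of 5, and 6 lower (median -0.37). Slc6a4, the serotonin transporter, was at 29.9, 30.7 and 20.99 FPKM in MacA-2wk and 0.0583, 0.316 and 0 FPKM in MacB2-2wk (log2 difference -4.64, SE 0.27, adjusted p = 3.32e-10). Slc39a2, a zinc importer, was at 94.1, 77.5 and 62.8 FPKM in MacA-2wk and 1.16, 2 and 2.79 FPKM in MacB2-2wk (log2 difference -4.75, SE 0.40, adjusted p = 5.31e-08). Slc2a6, a sugar transporter, was higher at 62.0, 22.8 and 24.1 FPKM in MacA-2wk and 262, 278 and 184 FPKM in MacB2-2wk (log2 difference 2.83, SE 0.36, adjusted p = 7.31e-06).

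Markers of other lung cells were present at different levels in the libraries, and their part in the results above was not tested. The 18 fibroblast markers summed to 94.0, 91.5 and 731.8 FPKM in MacA-2wk and 386.8, 615.9 and 556.3 FPKM in MacB2-2wk. The 16 endothelial markers summed to 222.6, 204.7 and 566.3 FPKM in MacA-2wk and 486.8, 1473 and 599.9 FPKM in MacB2-2wk. For 16 epithelial markers the sums were 155.8, 181.8 and 1216 FPKM in MacA-2wk and 584.0, 1937 and 2645 FPKM in MacB2-2wk. MacA-2wk replicate 3 thus lay above the MacB2-2wk range for fibroblast markers and within it for endothelial and epithelial markers, and the other MacA-2wk libraries lay below it. Fibroblast markers were called higher in 3 of 18 cases, and in 17 of 18 without MacA-2wk replicate 3. Endothelial markers went from 6 to 13 of 16, and epithelial markers from 4 to 9 higher of 16, with Epcam (log2 difference -2.82, SE 0.30, adjusted p = 7.8e-07) and Cdh1 (log2 difference -2.29, SE 0.43, adjusted p = 0.000543) lower both times. Hopx, counted as epithelial, was at 3.29, 2.56 and 12.2 FPKM in MacA-2wk and 44.1, 54.8 and 51.2 FPKM in MacB2-2wk.

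The 19 neutrophil markers summed to 137.9, 106.8 and 278.7 FPKM in MacA-2wk and 972.5, 892.9 and 709.4 FPKM in MacB2-2wk. Of the 15 tested, 6 were called higher (median 0.78): Cd177, Prtn3, Csf3r, Mmp9, Lcn2 and Mmp8. Mmp8 was not called without MacA-2wk replicate 3 (0.73, adjusted p = 0.139). Ly6g, Stfa2 and Stfa3 were at 0 in all 6 libraries, and S100a8 was at 61.0, 31.2 and 160.3 FPKM in MacA-2wk and 37.7, 159.9 and 30.4 FPKM in MacB2-2wk and not called. The log2 difference of S100a8 was -0.24 (SE 0.68, adjusted p = 0.863). Prtn3, the granule protease proteinase 3, was listed at 0 FPKM in all 3 MacA-2wk libraries and was at 22.96, 58.8 and 31.5 FPKM in MacB2-2wk. Cd177 was at 0.147, 0.242 and 0 FPKM in MacA-2wk and 65.1, 63.5 and 59.6 FPKM in MacB2-2wk (log2 difference 5.82, SE 0.22, adjusted p = 2.55e-12). B cell markers summed to 35.1 to 41.5 FPKM in MacA-2wk and 131.9 to 153.7 FPKM in MacB2-2wk, with 4 of 8 tested genes higher and 1 lower. Ighm, the heavy chain of IgM, was at 5.72, 3.67 and 14.6 FPKM in MacA-2wk and 124, 118 and 96.7 FPKM in MacB2-2wk (log2 difference 3.85, SE 0.29, adjusted p = 1.02e-08), and the lower member Cd22 at 28.5, 32.9 and 10.3 FPKM in MacA-2wk and 2.06, 0.777 and 1.63 FPKM in MacB2-2wk. T cell markers reached at most 13.4 FPKM in MacA-2wk and 30.8 FPKM in MacB2-2wk in sum and none was called. NK cell markers summed to 3.31 to 8.64 and 8.83 to 25.1 FPKM, with 2 of 6 called higher, and dendritic cell markers to 33.2 to 69.4 and 64.4 to 114.5 FPKM, with 4 of 10 called higher. The eosinophil genes Prg2 and Epx and the mast cell genes Mcpt4 and Tpsab1 were at 0 in all 6 libraries, with 1 higher (Alox15) and 1 lower (Ear6) of 2 tested eosinophil members and 1 of 2 tested mast cell members higher. Erythroid markers were called in no case, and of 6 tested platelet markers Pf4 was higher.

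**Figure D4:**
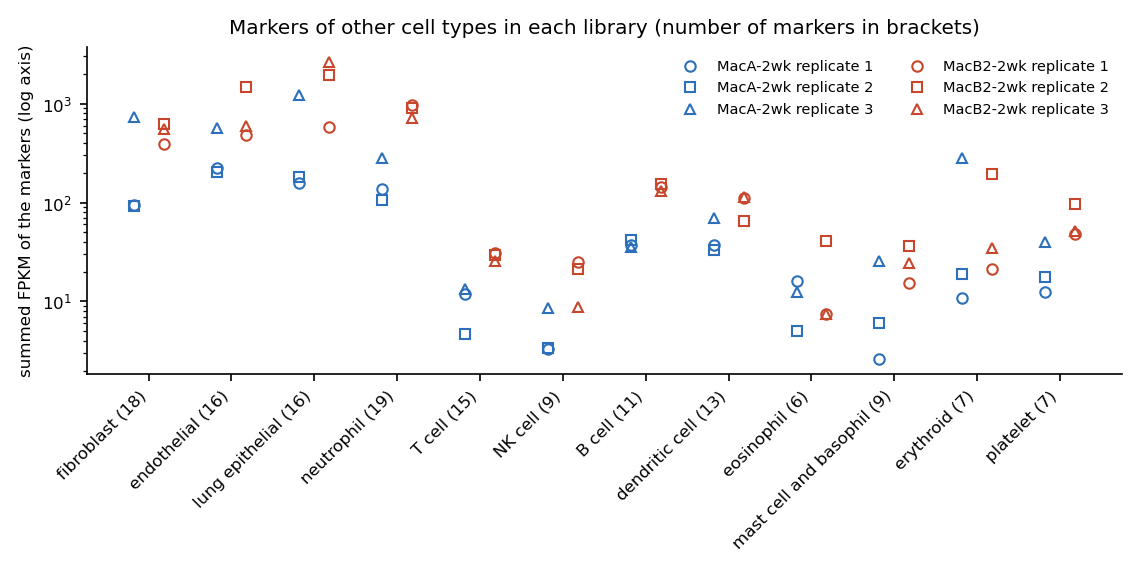
Summed FPKM of the markers of 12 other cell types on a log axis, 1 symbol per library, MacA-2wk in blue and MacB2-2wk in red. MacA-2wk replicate 3 (blue triangle) lies above the other MacA-2wk libraries for fibroblast, endothelial, epithelial and erythroid markers, and neutrophil and B cell markers lie higher in all 3 MacB2-2wk libraries.

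Most genes called in tumour lung were called in the same direction in naive lung. There, 1838 genes were called higher in MacB2-N than in MacA-N (10.7%) and 1745 lower (10.2%). Rescaling to protein-coding sums gave 1415 higher and 2249 lower (38.6% of calls higher, against 51.3%). These comparisons share no library. Of the genes called higher in tumour lung 1080 were also higher in naive lung, which is 65.8% of the former and 58.8% of the latter. Of those called lower 1011 were shared, 72.3% and 57.9%. Only 3 genes were called in opposite directions. Across the 17156 genes the differences correlated with r = 0.702, a description over genes, which are not independent and share depth and lane within each population. All 28 alveolar macrophage genes were lower in naive lung too, with a median of -5.67 against -4.33 in tumour lung. Interferon-stimulated genes were higher in 35 of 38 cases in naive lung (median 3.05 against 2.11), and mitotic genes lower in 27 of 32 (median -2.30 against -1.37). The 6 largest positive differences in naive lung included those in Ly6c2, Plac8, Ifitm6, Ms4a4c and Serpinb10, from 9.48 for Ly6c2 to 7.59 for Serpinb10. The 6 largest negative differences were in Fabp1 (-9.03), Ear1, Cidec, Wfdc21, Mcoln3 and Plet1 (-7.30).

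**Figure D5:**
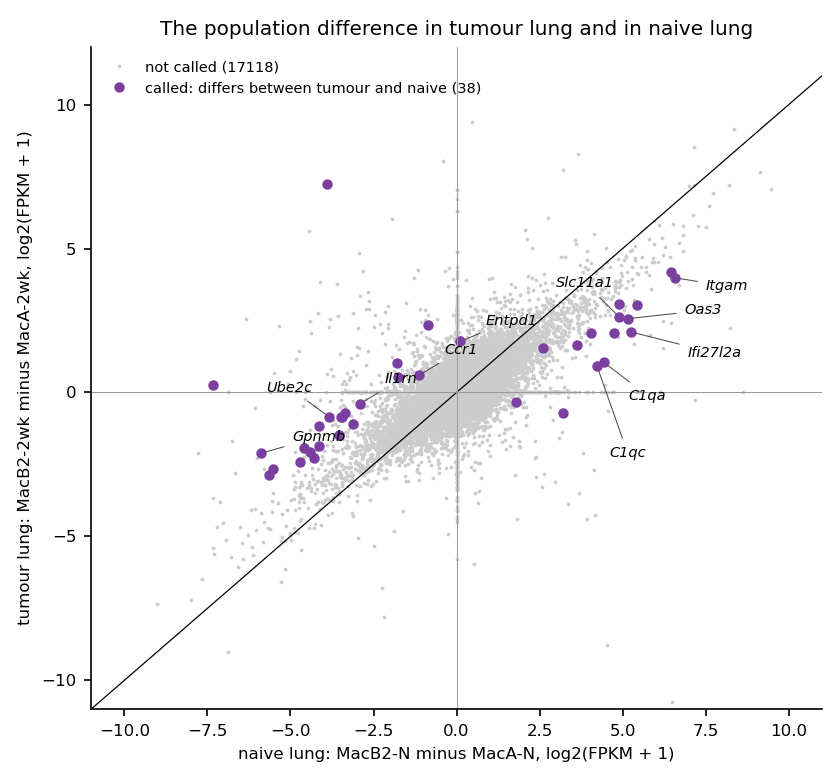
Log2 difference of MacB2 minus MacA in tumour lung at 2 weeks against the same difference in naive lung, 1 point per gene for 17156 genes, with the line of equality. Purple points are the 38 genes in which the tumour and naive differences were called different, most of them nearer to 0 in tumour lung than in naive lung.

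The difference itself was tested between tumour and naive lung, as an interaction in the same fit, and the log2 differences given for it are the tumour difference minus the naive difference. It was called in 38 genes (0.221%), 23 with a higher and 15 with a lower value in tumour lung. The count depended on the libraries and settings: it was 17 without MacB2-2wk replicate 3 and 57 without MacA-2wk replicate 2, and 5 when only the 12 libraries of these 4 groups were fitted. Of these 5 genes, only 3 were among the 38. Naive samples held all lobes of lungs without injected cells, and tumour samples the left lobe with its tumour after injection in Matrigel. Tumour, injection and kind of tissue thus cannot be told apart. Epithelial markers summed to 3544 to 10500 FPKM in MacB2-N and 584 to 2645 FPKM in MacB2-2wk. For MacA these sums were 753.7 to 5447 FPKM in MacA-N and 155.8 to 1216 FPKM in MacA-2wk. Fibroblast markers went the other way in MacB2, at 166.8 to 398.6 FPKM in MacB2-N and 386.8 to 615.9 FPKM in MacB2-2wk. The part of such cells in the calls was not tested. C1qa had the largest negative value among the named genes. It was at 0.36, 0.915 and 1.23 FPKM in MacA-N, 58.4, 13.7 and 46.8 FPKM in MacA-2wk, 38.0, 34.3 and 41.3 FPKM in MacB2-N and 63.9, 65.1 and 85.4 FPKM in MacB2-2wk (log2 difference -3.38, SE 0.48, adjusted p = 0.00864, at most 0.129 over the alternatives). All 3 MacA-2wk libraries were above the 3 MacA-N libraries in C1qa. C1qc was at 0.201, 0.893 and 0 FPKM in MacA-N and 37.9, 16.4 and 37.0 FPKM in MacA-2wk (log2 difference -3.29, SE 0.42, adjusted p = 0.00368, at most 0.0953 over the alternatives). The level of C1qa was 1727, 1903 and 1961 FPKM in MacB3-2wk, another macrophage population of tumour lung, and the part of such cells in the MacA-2wk value was not tested. The interferon-stimulated genes Ifi27l2a (log2 difference -3.16, SE 0.48, adjusted p = 0.00864, at most 0.0953 over the alternatives) and Oas3 (log2 difference -2.60, SE 0.41, adjusted p = 0.00864, at most 0.168 over the alternatives) also differed less between the populations in tumour lung. Oas3 was at 0.398, 0.478 and 0.43 FPKM in MacA-N and at 9.06, 6.88 and 5.72 FPKM in MacA-2wk, while the level was 66.8, 46.0 and 41.9 FPKM in MacB2-N. Itgam, Pla2g7 (a phospholipase of lipid mediators) and Slc11a1 followed the same pattern. Itgam was at 1.58, 0.679 and 4.65 FPKM in MacA-N, all below the MacA-2wk libraries (log2 difference -2.58, SE 0.50, adjusted p = 0.0368, at most 0.317 over the alternatives), and its call was lost without MacA-2wk replicate 3.

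Gpnmb, Ube2c, Scimp, Adcy3 and Actn1 were among the named genes with the 6 largest positive values. In each of them the mean level of the MacB2 libraries was higher in tumour lung than in naive lung. The MacA mean was lower in tumour lung than in naive lung for Adcy3 (34.7 against 70.1 FPKM) and Scimp (20.0 against 38.0 FPKM). It was also lower for Actn1 (85.5 against 98.3 FPKM), and higher for Gpnmb and Ube2c. Gpnmb was at 1.09, 1.38 and 2.19 FPKM in MacB2-N, 56.0, 17.3 and 54.2 FPKM in MacB2-2wk and 248, 194 and 95.4 FPKM in MacA-2wk (log2 difference 3.78, SE 0.77, adjusted p = 0.0459, at most 0.139 over the alternatives), and its call was lost without MacA-2wk replicate 3. Ube2c was at 1.8, 2.13 and 0.48 FPKM in MacB2-N, 25.1, 18.7 and 31.6 FPKM in MacB2-2wk and at 42.2, 31.3 and 27.1 FPKM in MacA-N (log2 difference 3.02, SE 0.44, adjusted p = 0.00864, at most 0.0816 over the alternatives). Actn1, an actin cross-linker, had 2.51, 2.01 and 5.63 FPKM in MacB2-N (log2 difference 2.64, SE 0.43, adjusted p = 0.0117, at most 0.16 over the alternatives), and the adenylyl cyclase gene Adcy3 had 0.301, 0.487 and 0.429 FPKM in MacB2-N (log2 difference 2.80, SE 0.45, adjusted p = 0.0107, at most 0.12 over the alternatives). Il1rn, the interleukin-1 receptor antagonist, was at 74.0, 75.1 and 46.9 FPKM in MacB2-N and 468, 315 and 614 FPKM in MacB2-2wk, while the MacA libraries overlapped, at 383, 637 and 481 FPKM in MacA-N and 664, 520.4 and 602 FPKM in MacA-2wk (log2 difference 2.52, SE 0.43, adjusted p = 0.0185, at most 0.0953 over the alternatives). Among the listed genes Ccr1, Fabp5 and Rfc3 were called as well, and each lost its call without MacA-2wk replicate 3, where 29 genes were called and 19 of the 38 remained. No alveolar or classical monocyte gene was among the 38.

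MacB3-2wk cells, taken from tumour lung at the same time and CD11c+ like MacA, were compared with MacB2-2wk. There 541 genes were higher in MacB3-2wk (3.15%) and 722 lower (4.21%). Quantile normalization gave 676 higher and 527 lower (56.2% of calls higher, against 42.8%). Fcrls, an Fc receptor-like scavenger protein, was at 253, 205 and 231 FPKM in MacB3-2wk, against 3.34, 7.91 and 3.57 FPKM in MacB2-2wk (log2 difference 5.36, SE 0.47, adjusted p = 4.58e-07). C1qa (4.70), C1qc (4.48), C1qb (4.27), Ccl12 (4.65) and Cd72 (4.46) were the other 5 with the largest positive differences. The 6 largest negative differences included those in Serpinb10 (-5.37), Cd177 (-4.65), Serpinb2 (-4.37), Pglyrp1 (-4.16) and Hp (-4.08). This comparison shares the MacB2-2wk libraries with that against MacA-2wk. Unlike there, same-numbered MacB3-2wk and MacB2-2wk libraries were run on the same lanes (2, 3 and 7). The main fit did not pair them, and with the replicate block 1282 genes were called, against 1263. Of the 16 classical monocyte genes 10 were lower in MacB3-2wk and none higher. By contrast, the alveolar macrophage list was not raised as a whole, with 4 of 28 higher and 6 lower (median -0.19). Csf1r was at 466, 321 and 432 FPKM in MacB3-2wk (log2 difference 0.10, SE 0.25, adjusted p = 0.891) and Ccr2 at 99.7, 89.4 and 99.7 FPKM in MacB3-2wk (log2 difference -1.202, SE 0.24, adjusted p = 0.00297). Lysosomal genes were higher in 20 of 39 cases, DNA replication genes in 16 of 32 and mitotic genes in 15 of 32, with none lower. Interferon-stimulated genes, in contrast, were higher in 1 of 38 and lower in none (median -0.19).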

How the data were processed

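RNA of sorted mouse lung macrophages was measured in 24 libraries, 3 for each of 8 groups, of which 6 libraries form the comparison of MacB2-2wk with MacA-2wk. Total RNA was made into libraries with a NuGen Ovation kit and mouse rRNA oligos, per the labels' protocols. The authors deposited 1 table of FPKM values, and the submitters' processing notes name TopHat2, Cufflinks 2.0.2, FastQC and the build mm10. Use of strand in the counting is not given in the sources at hand, so antisense and overlapping genes are uncertain. So are near-identical copies such as Ly6c1 and Ly6c2, Ear1 and Ear2, Tgtp1 and Tgtp2, and the hemoglobin genes. The same holds for the related genes Ifi204 and Ifi205.

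From the deposited FPKM values log2(FPKM + 1) was computed, and genes with a mean under 1 FPKM in every group were left out. A model with 1 mean per group was fitted to all 24 libraries in limma 3.58.1 (R 4.3.3) with a trend in mean level and 16 residual degrees of freedom, and p-values were adjusted by Benjamini-Hochberg over the 17156 genes tested. All tests were two-sided. Every adjusted p in the text comes from this limma fit or its alternatives. The code was tested on simulated data. Replicates are pools of 3 to 5 mice from independent experiments per the labels' protocols, so p-values measure the spread between pools. Depth is known only in relative terms, so no counting intervals are given.

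The comparison and the 46 gene lists (931 entries, 928 matched to the table) were chosen with earlier results of these data known. Named genes were the 12 highest and 12 lowest called differences whose higher group averaged 20 FPKM or more and whose libraries did not overlap, and 6 each way in the other comparisons. From each list came the members with the lowest adjusted p (at most 6), those with the highest level (at most 4 more) and any member called against the direction of its list. Further members that were not called are named as such, and some called members were named after their values were seen. Some genes that the rule names are not reported here. Gene positions are from GENCODE M21 (GRCm38), and promoters from RefSeq (GRCm38.p6). Alternatives were the filter, the pseudocount, the normalization, the trend, the libraries in the fit, a replicate block and leaving out each library.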

Additional observations from a re-analysis of the deposited data

Results flagged for a closer look

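The MacB2 minus MacA difference was compared between tumour lung at 2 weeks and naive lung by the test of the difference itself, and 38 genes of 17156 were called in limma with Benjamini-Hochberg adjustment. The values here are the tumour difference minus the naive difference on the log2(FPKM + 1) scale, for 18 of these genes. The complement genes C1qa (-3.38) and C1qc (-3.29) had the most negative values among them. Interferon-stimulated genes followed with Ifi27l2a (-3.16), Oas3 (-2.60), Oasl2 (-2.39) and Rtp4 (-2.005). Pla2g7 was at -2.67, Itgam at -2.58 and Slc11a1 at -2.25. In these 9 genes the mean level in MacA cells was higher in tumour lung than in naive lung. The MacB2 mean was higher in tumour lung for C1qa, C1qc, Oasl2 and Rtp4, and lower for the others.

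Positive values were found for Gpnmb (3.78), the mitotic gene Ube2c (3.02), Scimp (2.97), Adcy3 (2.80), Actn1 (2.64), Fabp5 (2.59), Il1rn (2.52), Rfc3 (2.30) and Ccr1 (1.72). In these 9 genes the mean level in MacB2 cells was higher in tumour lung than in naive lung. The MacA mean was lower in tumour lung for Scimp, Adcy3, Actn1, Fabp5 and Rfc3, and higher for Gpnmb, Ube2c, Il1rn and Ccr1. Without MacA-2wk replicate 3, the calls of Pla2g7, Itgam, Oasl2, Rtp4, Ccr1, Rfc3, Fabp5 and Gpnmb were lost. Gpnmb was called under 3 of 21 alternatives, Pla2g7 and Oasl2 under 7, and Itgam, Slc11a1 and Fabp5 under 8. The other genes named here were called under 11 (Rtp4) to 20 of them.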

How the results depend on the processing

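The comparison of MacB2-2wk with MacA-2wk called 3040 genes, and 1812 with a pseudocount of 5. With only its 6 libraries in the fit 2033 genes were called, and 65.8% of the 3040 calls remained. Leaving out 1 library at a time gave 2735 to 3544. The comparison in naive lung called 3583, 2101 with a pseudocount of 5 and 3231 to 3569 with 1 library left out. MacB3-2wk against MacB2-2wk called 1263, 713 with a pseudocount of 5 and 922 to 1253 with 1 library left out. Under the other settings run these 3 counts stayed within 1.5 times their value. The difference between tumour and naive lung called 38 genes, 23 without a filter, 5 with only the groups compared, 89 with a pseudocount of 0.1, 19 with a pseudocount of 5, and 17 to 57 with 1 library left out. The fit with only the groups compared holds fewer libraries, and the cause of the other changes was not tested. No named gene that was called changed the sign of its difference under the alternatives run.

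The balance of higher and lower calls did turn. With protein-coding rescaling it went from 1642 higher and 1398 lower to 1175 and 2107 in the main comparison, and from 1838 and 1745 to 1415 and 2249 in naive lung. For MacB3-2wk it went from 541 and 722 to 676 and 527 with quantile normalization. The medians of 4 lists turned below 0 with rescaling, those of oxidative phosphorylation (0.15 to -0.14), coagulation (0.13 to -0.16), oxidases (0.06 to -0.24) and scavenger receptors (0.14 to -0.01). Quantile normalization turned those of oxidative phosphorylation (-0.06) and oxidases (-0.16). Among lists with 3 or more members called in a direction, such a count moved by over 1.5 times in 6 of 34 lists with a pseudocount of 5, in 6 with only the groups compared and in 4 with rescaling. Interferon-gamma GTPases called higher fell from 11 to 7 with a pseudocount of 5. Interstitial macrophage genes called higher fell from 11 to 7 with only the groups compared. Under the filter at 5 FPKM, 1 scavenger receptor was called higher in place of 3.

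With the replicate block the counts were 3039, 24, 3587 and 1282, in the order given for the main comparison, the difference between tumour and naive lung, naive lung and MacB3-2wk. Same-numbered MacA-2wk and MacB2-2wk libraries had deviations that correlated at 0.134, 0.025 and 0.122 over 5086 genes. They share only a number as far as the labels say, although each library correlated best with its own number. FPKM values keep no absolute depth, so genes listed at 0 may lie below detection.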
